A study of Mus musculus with 12 samples.

Results

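The proton pump of the lysosome and the proteins of the lysosomal membrane were followed in hippocampal RNA of mice that lack USF-1. The 38 genes were taken by gene name from 55487 genes of a table of normalised counts, and all 38 were found. They fall into 2 sets, with 21 genes of the vacuolar proton pump (V-ATPase) and its regulators, and 17 genes of lysosomal membrane proteins, channels and transporters. Hippocampi of 6 wild-type (WT) and 6 USF-1 KO mice on the C57Bl/6JRccHsd background, aged 3 to 4 months, were sequenced with 1 library per mouse. By the sample labels, the WT group held 4 females and 2 males, and the KO group held 2 females and 4 males. The legend of the paper's figure on hippocampal expression, which also covers its PCR, gives 3 males and 3 females per genotype. The labels were used here. The KO mice were constitutive knockouts from heterozygous breeding, so USF-1 was missing in every cell type and throughout development, and the WT mice were their littermates. In such bulk tissue, fewer cells of a type and less RNA per cell cannot be told apart.

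The V-ATPase is a rotary pump that uses ATP to move protons into lysosomes, endosomes and synaptic vesicles. Its cytosolic V1 sector hydrolyses ATP, its membrane-embedded V0 sector carries the protons, and accessory proteins and rabconnectin-3 regulate assembly and activity. The low pH that results drives lysosomal hydrolases, the transporters that export their products, and the loading of transmitter into synaptic vesicles. USF-1, a basic helix-loop-helix factor, recognises the sequence CACGTG, known as the E-box.

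Usf1 itself (chr1:171411313-171419142, GRCm38) had a normalised count of 842 in the lowest, 1512 in the median and 1583 in the highest WT mouse. In KO mice the count was 117, 139 and 163. The genotypes did not overlap, with a log2 fold change of -3.29 ± 0.14 (SE, n = 6 per genotype) and an adjusted p of 1.77e-08 by limma. Read totals on genes ranged from 23369928 to 32091173 in WT and from 21679622 to 30859179 in KO mice, and did not differ between genotypes beyond their spread (exact permutation test, two-sided, p = 0.253). The tissue held markers of excitatory neurons, with 8 of 8 genes above the mean count of 10 that was required for testing. WT replicate 1 and WT replicate 5 stood apart from the other mice in their level of 10 markers of the choroid plexus, the tissue of the ventricle that secretes cerebrospinal fluid. The mean log2 level of those markers was 10.6 and 11.9 in these 2 mice, and between 5.43 and 7.15 in the other 10.

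None of the 38 genes passed an adjusted p of 0.05 (limma on log2(normalised count + 1), two-sided, Benjamini-Hochberg over 18221 genes tested), and the lowest adjusted p among them was 0.115. Over all genes tested, 164 (0.900%) passed. At an unadjusted p under 0.05 there were 7 of the 38, beside 13.5% of all genes. Of these 7, Atp6v1a, Atp6v0c, Atp6v0a1 and Atp6v0d1 had higher means in KO mice (4 of 38, beside 5.92% of all genes in that direction), and Cln3, Atp6v0a2 and Scarb2 had lower means (3 of 38, beside 7.60%). With edgeR on the recovered reads, 0 of the 38 passed beside 0.829% of all genes, and 10 had an unadjusted p under 0.05 beside 13.9%. With DESeq2 on the same reads, 3 of the 38 passed beside 3.38% of all genes, namely Atp6v1a (log2 fold change 0.14, adjusted p = 0.0132), Cln3 (-0.25, adjusted p = 0.0289) and Atp6v0a2 (-0.15, adjusted p = 0.0421). Over the alternatives with both sexes in the fit, the adjusted p of these 3 genes reached 0.535, 0.409 and 0.361 at most. In females alone it was 0.998, 0.964 and 0.998, and in males alone 0.591, 0.573 and 0.573. The standard errors of the log2 fold changes lay between 0.029 and 0.14 with a median of 0.051, against a median of 0.085 over all genes tested.

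**Figure D1:**
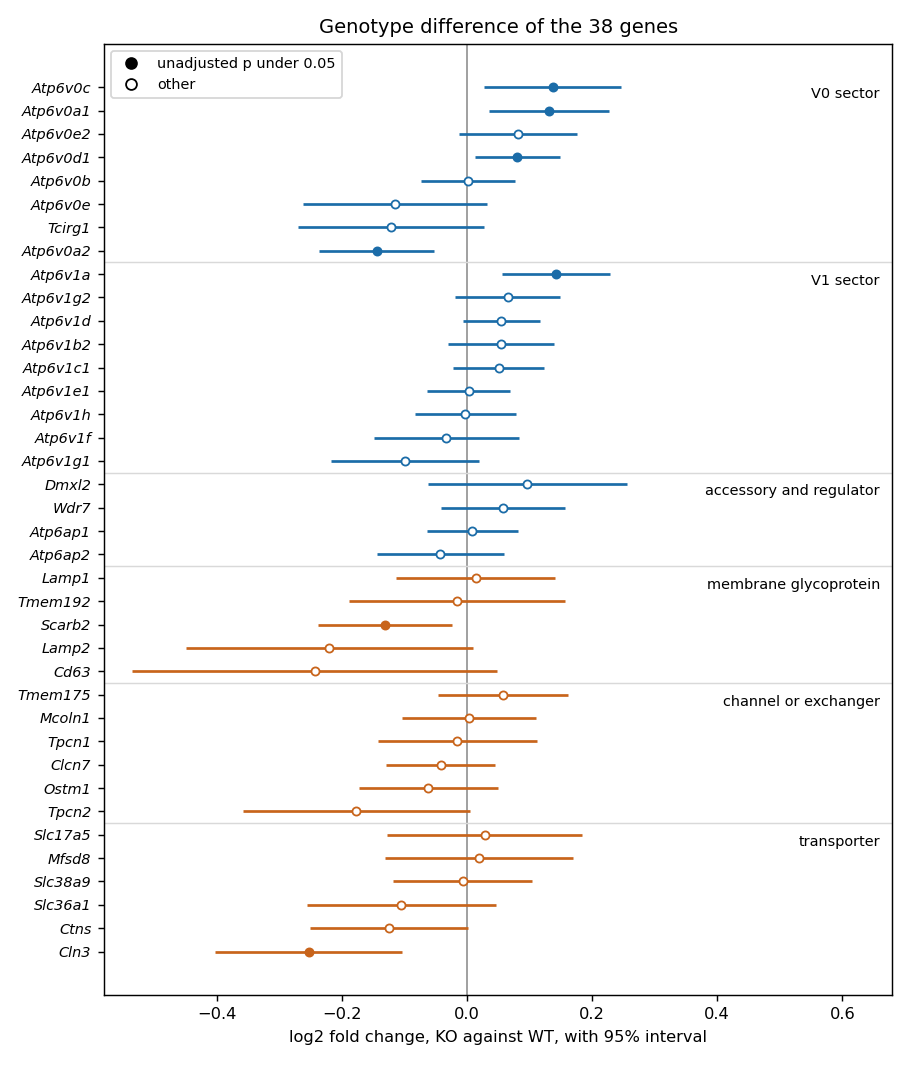
The horizontal axis is the log2 fold change of KO against WT mice with its 95% interval, and each row is 1 of the 38 genes, grouped by role, with V-ATPase genes in blue and lysosomal membrane genes in orange. Filled points mark the 7 genes with an unadjusted p under 0.05, and the interval of every other gene covers 0.

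The KO mean lay between 83.4% of the WT mean for Cd63 and 110.4% for Atp6v1a, and the widest interval ran from -0.54 to 0.05 on the log2 scale for Cd63.

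The promoters were read because USF-1 binds the E-box. Promoter windows, from 250 bases before to 50 bases after a gene start, were available from RefSeq (GRCm38.p6) for 31 of the 38 genes. No window was available for Atp6v0a2, Atp6v1b2, Atp6v1c1, Atp6v1g1, Atp6v1h, Wdr7 and Tpcn1, so their promoters were not read. The motif CACGTG reads the same on both strands. It was present in a window of 9 of the 31 genes (29.0%), in 4 of 15 V-ATPase genes and 5 of 16 lysosomal membrane genes. Over 27025 genes in the table the share was 8.09%, and over the 12147 of them that were tested for expression it was 11.2%. The extended form TCACGTGA, which contains the E-box and lies at the core of the CLEAR element known from lysosomal genes, was present in 7 of the 31 genes (22.6%), against 1.13% of all genes in the table and 1.97% of those tested. A match describes the letters in the window and does not show binding.

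The 7 extended sites are shown as the longer matches among the 17 E-boxes found in these windows, each with the E-box and 12 bases on either side, 5′ to 3′ on the strand of the gene, where capitals mark the E-box.
Atp6v0d1 (chr8:105566050-105566079, minus strand): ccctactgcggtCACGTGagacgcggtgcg
Atp6v0e (chr17:26676387-26676416, plus strand): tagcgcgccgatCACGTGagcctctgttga
Atp6v1a (chr16:44139373-44139402, minus strand): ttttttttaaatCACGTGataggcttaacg
Clcn7 (chr17:25133386-25133415, plus strand): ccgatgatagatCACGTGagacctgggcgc
Cln3 (chr7:126583340-126583369, minus strand): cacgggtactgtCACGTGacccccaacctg
Mcoln1 (chr8:3500462-3500491, plus strand): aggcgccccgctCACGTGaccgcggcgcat
Slc36a1 (chr11:55204325-55204354, plus strand): gggagccagcatCACGTGacagggcccgga

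Relative to the RefSeq start of the window, the E-boxes of Atp6v0d1 and Slc36a1 began 3 bases before it, that of Mcoln1 45, that of Cln3 121 and that of Atp6v1a 131 bases before it, and those of Atp6v0e and Clcn7 began 3 and 7 bases after it. A gene can have other starts in GENCODE M21. By that annotation the sites of Atp6v0d1 and Slc36a1 lay outside the gene, those of Mcoln1, Cln3, Atp6v0e and Clcn7 in a 5′ untranslated exon of an annotated transcript, and that of Atp6v1a in an intron. The starts used for Atp6v0e, Cln3, Atp6v1a and Mcoln1 lie inside the deposited bounds of their genes. Those bounds are chr17:26663231-26699647 (Atp6v0e), chr7:126571207-126585817 (Cln3), chr16:44085402-44139705 (Atp6v1a) and chr8:3500457-3515232 (Mcoln1). Genotype differences of the 7 genes went either way. Atp6v1a and Atp6v0d1 had positive log2 fold changes (0.14 and 0.08), Cln3, Atp6v0e, Slc36a1 and Clcn7 had negative ones (-0.25, -0.11, -0.10 and -0.04), and Mcoln1 was at 0.00. Lamp1, whose window held 4 E-boxes and no extended site, had a log2 fold change of 0.01, and Atp6v0b, with 2 E-boxes, was at 0.00.

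Levels were compared between genes as normalised counts per kilobase of transcript over all 12 mice. They spanned from 33.7 ± 3.6 (SD, n = 12) for Tpcn2, a cation channel of endolysosomes, to 12693 ± 967 for Atp6v0c. The median was 2543 in the V-ATPase set and 316 in the lysosomal membrane set. The highest V-ATPase genes were Atp6v0c, which encodes the proteolipid of the rotating c ring, Atp6v1g2 (8593 ± 380), the G subunit isoform of the nervous system, and Atp6v0e2 (5111 ± 287), an isoform of the small e subunit. The highest lysosomal membrane genes were Lamp1 (3252 ± 234), a heavily glycosylated protein that lines the lysosome, Cd63 (793 ± 176), a tetraspanin of late endosomes and lysosomes, and Scarb2 (711 ± 53), which carries the enzyme glucocerebrosidase to the lysosome. In the order of the 38 levels, 10 of the 37 neighbouring pairs had ranges over the mice that did not overlap, and in 17 pairs the difference was no larger than the SD, so much of the middle of the order was not resolved.

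**Figure D2:**
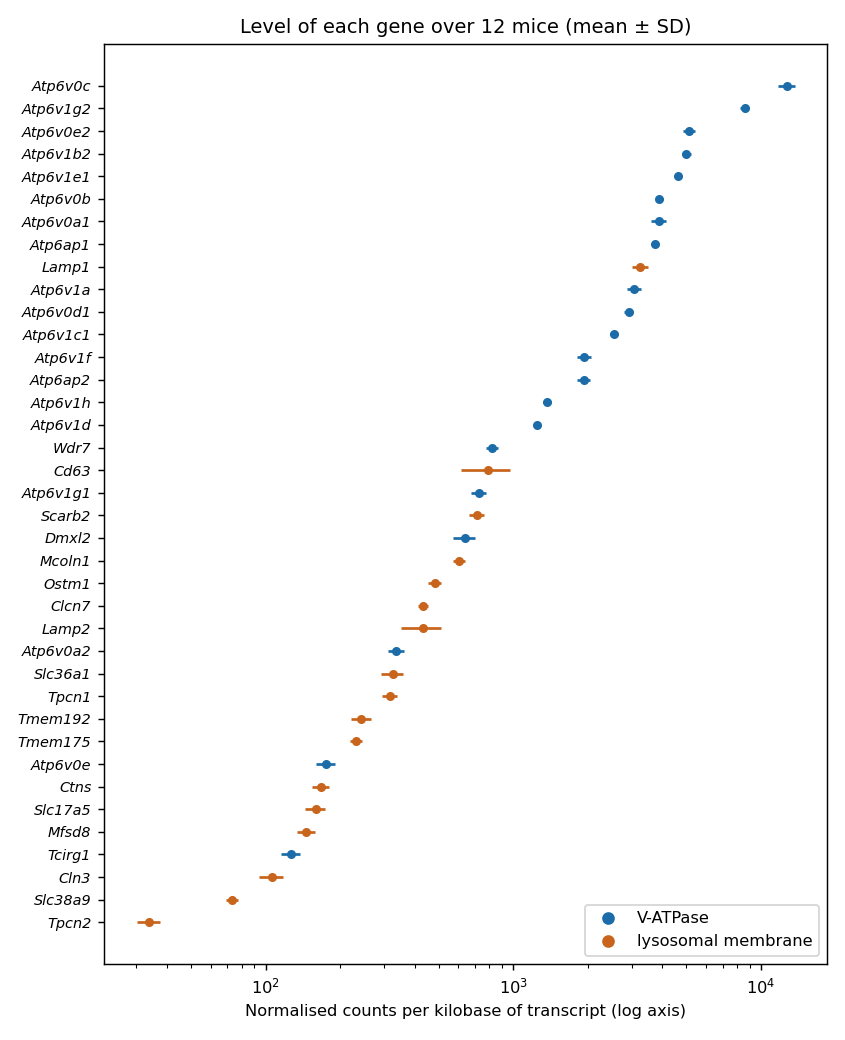
The horizontal log axis gives the level of each of the 38 genes in normalised counts per kilobase of transcript, as the mean ± SD over the 12 mice. V-ATPase genes (blue) run from Atp6v0c at 12693 down to Tcirg1 at 126, and lysosomal membrane genes (orange) from Lamp1 at 3252 down to Tpcn2 at 33.7, so the sets overlap.

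The V1 subunits were ordered by their copy number in the pump, a grouping made after the values were seen. The assembled V1 sector holds several copies each of A, B, E and G and a single copy each of C, D, F and H. With isoforms summed within a mouse, the several-copy subunits had levels per kilobase of 3073 ± 200 (A), 4991 ± 216 (B), 4627 ± 116 (E) and 9316 ± 372 (G). The single-copy subunits had 2543 ± 91 (C), 1243 ± 34 (D), 1933 ± 126 (F) and 1371 ± 53 (H). The lowest mouse for A, at 2751, lay just above the highest mouse for C, at 2721. When exon length over all transcripts replaced the length of the main transcript, the 4 several-copy subunits stayed between 1477 and 5955 and the 4 single-copy subunits between 288 and 1278. In the V0 sector, c had the highest level (12693 ± 967), followed by e (5286 ± 282), a (4331 ± 248), c″ (3885 ± 131) and d (2924 ± 116).

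Within the V0 sector, 5 of 8 genes had higher and 3 lower means in KO mice, and none passed the test. Atp6v0c had normalised counts of 13448, 14212 and 15447 in the lowest, median and highest WT mouse, and of 13802, 16262 and 16467 in KO mice. Of the 6 KO mice, 4 lay above every WT mouse, and KO replicate 2 lay among the lower WT mice. The log2 fold change was 0.14 ± 0.05 (SE, unadjusted p = 0.0178, adjusted p = 0.245 by limma). About 9.24% of the 75-base stretches of Atp6v0c occur also in other transcripts, chiefly its pseudogene Atp6v0c-ps2, so part of its reads could be assigned either way. Atp6v0d1, which encodes the subunit that couples the c ring to the central shaft, had counts of 4460, 4607 and 4772 in WT and of 4703, 4914 and 5107 in KO mice, with 5 of 6 KO mice above every WT mouse (log2 fold change 0.08 ± 0.03, adjusted p = 0.274). Atp6v0b, the c″ proteolipid, was at 0.00 ± 0.04, and its interval of -0.07 to 0.08 left room for a difference of a few percent only.

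The a subunit forms the proton channel with the c ring, and its isoforms steer the pump to different membranes. The dominant hippocampal isoform, Atp6v0a1, is the one of neurons and synaptic vesicles. It had counts of 14180.4, 14675 and 15848 in WT and of 15294, 15969.8 and 17565 in KO mice, with 6 of 6 KO mice above the WT mean and 3 above every WT mouse (log2 fold change 0.13 ± 0.04, unadjusted p = 0.0111, adjusted p = 0.204). Atp6v0a2, the isoform of the Golgi and endosomes, had counts of 1773, 1858 and 2063 in WT and of 1660, 1686 and 1834 in KO mice. In 5 of 6 KO mice its count was below every WT mouse, and only KO replicate 2 reached the WT range (log2 fold change -0.14 ± 0.04, unadjusted p = 0.0047, adjusted p = 0.140). The third isoform, Tcirg1, best known from osteoclasts, had means of 400 ± 27 (SD) in WT and 368 ± 36 in KO mice, and the genotypes overlapped.

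Expressed as shares of the a subunit per kilobase, the isoforms separated the genotypes, a comparison that was made after the gene values were seen and that carries no test. The share of Atp6v0a2 was 7.85%, 8.45% and 9.13% in the lowest, median and highest WT mouse, and 6.69%, 7.14% and 7.78% in KO mice. Every KO mouse lay below every WT mouse. The share of Atp6v0a1 lay between 87.3% and 88.9% in WT and between 89.5% and 91.1% in KO mice, again with no overlap, while that of Tcirg1 was 3.15% ± 0.20 in WT and 2.71% ± 0.38 in KO mice and overlapped. Such shares do not depend on the size factor of a library. Atp6v0a1 and Atp6v0a2 had already been seen to differ in opposite directions in these mice, which favours separate shares. The shares within the e subunit, the G subunit, Tpcn1 with Tpcn2 and Lamp1 with Lamp2 all overlapped between the genotypes. How often shares separate in other gene families was not counted. The mean share of Atp6v0a2 was 8.74% in the 2 WT mice high in choroid plexus markers and 8.32% in the other 4.

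Minor isoforms of the other subunits had lower mean shares in KO mice as well, with overlap between the genotypes. Atp6v0e, the broadly expressed isoform of the e subunit, made up 3.54% ± 0.28 of that subunit in WT and 3.12% ± 0.38 in KO mice, against Atp6v0e2 for the rest. Atp6v1g1, the broadly expressed isoform of the G subunit, made up 8.18% ± 0.46 in WT and 7.37% ± 0.59 in KO mice, against Atp6v1g2 for the rest. In counts, the minor isoforms had log2 fold changes of -0.11 ± 0.07 (Atp6v0e) and -0.10 ± 0.06 (Atp6v1g1) and the major ones of 0.08 ± 0.04 (Atp6v0e2) and 0.07 ± 0.04 (Atp6v1g2), and none of the 4 passed even the unadjusted threshold. With the level of oligodendrocyte markers as a covariate, chosen after seeing the data, Atp6v1g1 and Atp6v1g2 were both at 0.05. In that fit Atp6v0e was at -0.08 and Atp6v0e2 at 0.13. Of the 75-base stretches of Atp6v1g1, 12.5% are shared, chiefly with Gm13453.

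**Figure D3:**
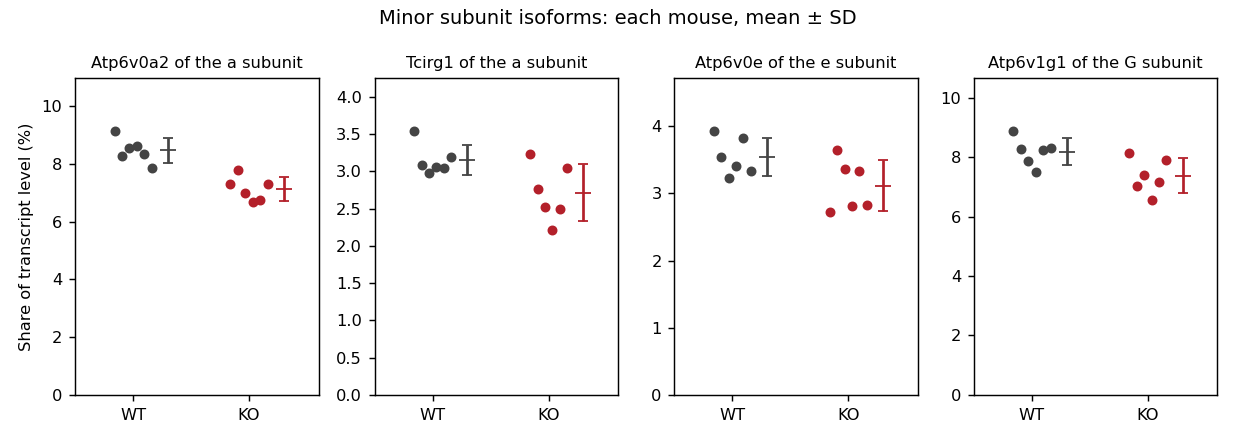
Each panel gives the share of the level per kilobase (vertical axis, percent of the subunit's isoforms) of a minor isoform in each of 6 WT (grey) and 6 KO (red) mice, with the mean ± SD beside the points. The share of Atp6v0a2 did not overlap between genotypes (7.85% to 9.13% in WT, 6.69% to 7.78% in KO), whereas Tcirg1, Atp6v0e and Atp6v1g1 overlapped.

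In the V1 sector, 6 of 9 genes had higher and 3 lower means in KO mice, and none passed. Atp6v1a encodes the catalytic A subunit, which binds and hydrolyses ATP. It had counts of 11646, 12333 and 13060.0 in WT and of 12794, 13732 and 14308 in KO mice, with 5 of 6 KO mice above every WT mouse (log2 fold change 0.14 ± 0.04, unadjusted p = 0.0033, adjusted p = 0.122). This was the lowest adjusted p of the V-ATPase set. Atp6v1b2, its partner at the ATP-binding interface, had a log2 fold change of 0.05 ± 0.04, and its KO range lay within the WT range. Apart from the G subunit isoforms, the remaining V1 genes lay between -0.03 for Atp6v1f and 0.05 for Atp6v1c1 and Atp6v1d. Atp6v1d, part of the central rotor, was the steadiest gene of the 38, with a coefficient of variation of 1.72% among WT mice, and 4 of 6 KO mice were above every WT mouse (log2 fold change 0.05 ± 0.03, unadjusted p = 0.0745). Atp6v1e1 and Atp6v1h, parts of the stator and of its regulation, were both at 0.00, with intervals of -0.06 to 0.07 and -0.08 to 0.08.

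The accessory proteins showed no difference that passed. Atp6ap1 and Atp6ap2, which guide assembly of the pump and lie on chromosome X, had log2 fold changes of 0.01 ± 0.03 and -0.04 ± 0.05. Dmxl2 and Wdr7 encode the large subunits of rabconnectin-3, which promotes the joining of V1 to V0. Dmxl2 was the most variable gene of the V-ATPase set, with counts of 5989, 6481 and 7078 in WT and of 6000.4, 7185 and 8085 in KO mice. The lowest mice of both genotypes were at the same level, and 3 of 6 KO mice were above every WT mouse (log2 fold change 0.10 ± 0.07, adjusted p = 0.612). Wdr7 had means of 5738 ± 250 (SD) in WT and 5977 ± 388 in KO mice (log2 fold change 0.06 ± 0.05).

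Dmxl2 and Wdr7 varied together across the mice. Over the 12 mice, Pearson's r of the log2 values was 0.936 and Spearman's rho was 0.972 (permutation test with 100000 resamples, p = 2e-05 for each, the smallest value that these resamples can give, and 4e-05 after adjustment over 2 pairs). Without the 2 mice farthest from the median of Dmxl2, r was 0.907. Within the genotypes r was 0.880 in WT and 0.948 in KO mice, and within the sexes it was 0.911 in females and 0.960 in males. The values of a mouse come from 1 library, so the points share depth and RNA preparation. The order of mice was not limited to this pair. Lamp1 was highest in KO replicate 6, KO replicate 1 and WT replicate 1 (8006, 7984 and 7639), where Dmxl2 was lowest (6000, 6075 and 5989). The correlation was not set against other pairs of genes, so it cannot be called particular to rabconnectin-3. The other pair of binding partners examined, the chloride-proton exchanger Clcn7 and its beta subunit Ostm1, had r = -0.425 (permutation p = 0.161) and rho = -0.525 (permutation p = 0.0849).

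**Figure D4:**
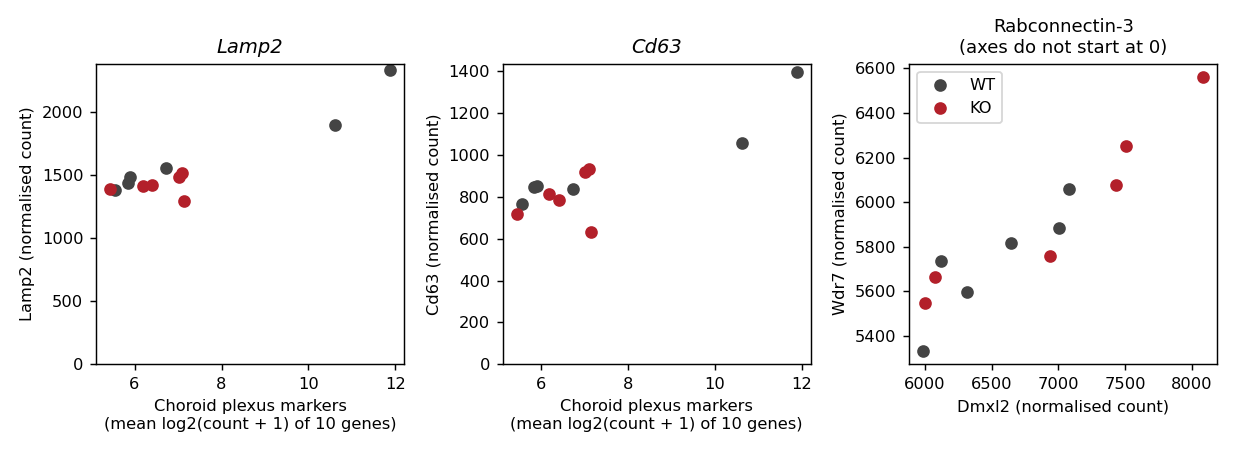
The left and middle panels plot the normalised counts of Lamp2 and Cd63 against the mean log2(count + 1) of 10 choroid plexus markers in each mouse (WT grey, KO red), and the right panel plots Wdr7 against Dmxl2 in normalised counts. The highest values of Lamp2 and Cd63 belong to the 2 WT mice with marker levels of 10.6 and 11.9, and Wdr7 follows Dmxl2 in both genotypes (r = 0.936 on log2 values).

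Among the 5 membrane proteins Lamp1, Lamp2, Cd63, Scarb2 and Tmem192, 4 had lower means in KO mice and none passed the test. Lamp1, the most abundant, had counts of 6387, 7428 and 7639 in WT and of 6578, 7201 and 8006 in KO mice, which overlapped almost fully (log2 fold change 0.01 ± 0.06). Scarb2 had counts of 3125, 3507 and 3708 in WT and of 2866, 3211 and 3416 in KO mice. All 6 KO mice were below the WT mean, but only 1 was below every WT mouse (log2 fold change -0.13 ± 0.05, unadjusted p = 0.0202, adjusted p = 0.259). Tmem192, a protein of the lysosomal membrane often used as its tag, was at -0.02 ± 0.08.

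Cd63 and Lamp2 had the widest spread of the 38 genes among WT mice, with coefficients of variation of 24.6% and 21.8%, and among KO mice of 14.5% and 5.34%. Cd63, the most variable gene of its set, had counts of 764, 849 and 1397 in WT and of 632, 799 and 933 in KO mice. Lamp2, which acts in autophagosome fusion and chaperone-mediated autophagy, had counts of 1381, 1524 and 2333 in WT and of 1298, 1419 and 1515 in KO mice. For both genes the 2 highest mice were WT replicates 1 and 5, the mice high in choroid plexus markers, whose mean was 1.49 times (Cd63) and 1.44 times (Lamp2) that of the other 4 WT mice, whereas this ratio lay between 0.926 and 1.12 for the other 36 genes. With all mice, the log2 fold changes were -0.24 ± 0.14 (Cd63) and -0.22 ± 0.11 (Lamp2). Without those 2 mice they were -0.06 and -0.05. With the level of oligodendrocyte markers as a covariate in all mice, chosen after seeing the data, they were 0.01 and -0.07. The 10 choroid plexus markers had a summed count of 4306 to 240143 in WT and of 3794 to 6428 in KO mice, none of the markers was at 0 in all mice, and their part in the difference of Lamp2 and Cd63 was not tested beyond this. Of the stretches of Cd63, 6.47% are shared, chiefly with its pseudogene Cd63-ps.

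Of the 6 channels and exchangers, none had an unadjusted p under 0.05. Mcoln1, the calcium channel whose loss causes mucolipidosis, was at 0.00 ± 0.05 with counts of 1170.0 to 1354 in WT and 1114 to 1342 in KO mice. Clcn7 and Ostm1 were at -0.04 ± 0.04 and -0.06 ± 0.05, and the potassium and proton channel Tmem175 was at 0.06 ± 0.05, with 35.3% of its exon bases overlapped by Dgkq on the opposite strand. Of the endolysosomal cation channels Tpcn1 and Tpcn2, the first had the higher level and a log2 fold change of -0.02 ± 0.06, and the second made up 10.2% ± 1.2 of their summed level in WT and 9.17% ± 0.89 in KO mice. Tpcn2 had counts of 94.3, 104 and 127 in WT and of 89.6, 94.8 and 99.2 in KO mice, where the KO mice lay in the lower part of the WT range or below it (log2 fold change -0.18 ± 0.08, unadjusted p = 0.056). It rested on 80 to 160 reads per library, the fewest of the 38 genes.

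Among the 6 transporters, Cln3 had the lowest adjusted p of all 38 genes. Cln3 encodes a lysosomal membrane protein whose loss causes juvenile neuronal ceroid lipofuscinosis, or Batten disease. Its counts were 354, 365 and 389 in the lowest, median and highest WT mouse and 249.8, 317 and 339 in KO mice. All 6 KO mice were below all 6 WT mice, and no other gene of the 38 separated the genotypes in this way, against 1.50% of all genes tested. The log2 fold change was -0.25 ± 0.07 (SE, unadjusted p = 0.0027, adjusted p = 0.115 by limma). It was -0.27 without the 2 mice high in choroid plexus markers (adjusted p = 0.291), and -0.27 in females and -0.21 in males. Exons of Cln3 overlap those of Apobr on the opposite strand over 7.65% of their bases, and Apobr had a mean count of 21.1 against 338 for Cln3.

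The other 5 transporters did not separate the genotypes. Ctns, the cystine exporter, had means of 474 ± 37 and 434 ± 22 with 6 of 6 KO mice below the WT mean (log2 fold change -0.12 ± 0.06, unadjusted p = 0.0519). Slc36a1, which exports amino acids with protons, was at -0.10 ± 0.07 with 6 of 6 KO mice below the WT mean but all of them within the WT range. Slc17a5, the sialic acid exporter, Mfsd8, another protein of neuronal ceroid lipofuscinosis, and Slc38a9, the arginine sensor upstream of mTORC1, lay at 0.03 ± 0.07, 0.02 ± 0.07 and -0.01 ± 0.05.

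**Figure D5:**
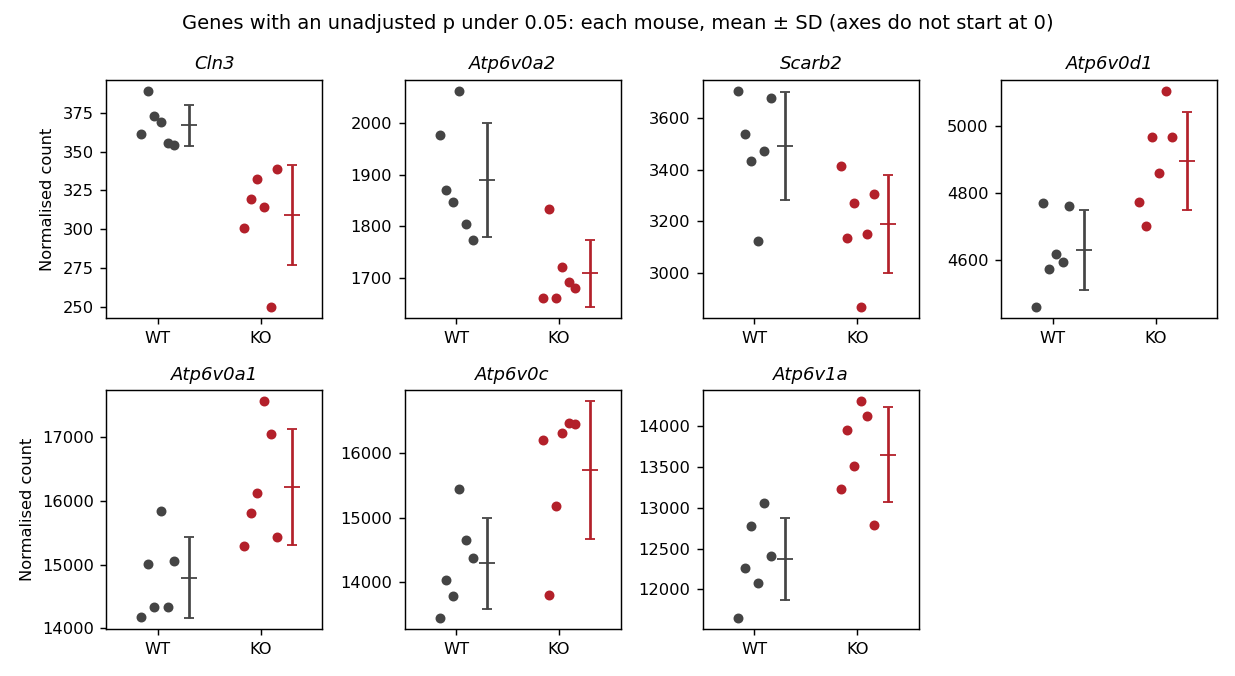
Each panel gives the normalised count (vertical axis, not starting at 0) of 1 of the 7 genes with an unadjusted p under 0.05 in each of 6 WT (grey) and 6 KO (red) mice, with the mean ± SD beside the points. The genotypes separate fully in Cln3 (354 to 389 against 249.8 to 339) and overlap by at least 1 mouse in the other 6.

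The 2 sets were then compared. Of the V-ATPase genes, 14 had higher and 7 lower means in KO mice with a median log2 fold change of 0.05, and of the lysosomal membrane genes 5 had higher and 12 lower means with a median of -0.04, beside a median of 0.00 over all genes tested. The V-ATPase split depended on the scaling of the libraries, with 11 higher and 10 lower under quantile normalisation (median 0.01) and 12 and 9 with edgeR's scaling, whereas 11 or 12 of the 17 lysosomal membrane genes were lower under each of 5 scalings or tools. All 5 used the same mice. Between females alone and males alone, 16 of 21 V-ATPase genes but only 7 of 17 lysosomal membrane genes kept the same sign. The medians were 0.02 and 0.03 for the V-ATPase set in females and males, and -0.08 and -0.05 for the lysosomal membrane set. At an unadjusted p under 0.05 there were 5 of 21 (4 higher and 1 lower) and 2 of 17 (both lower), beside 13.5% of all genes. The mean log2 level of the V-ATPase set, centred on each gene's mean, was -0.01 ± 0.02 (SD) in WT and 0.01 ± 0.03 in KO mice. That of the lysosomal membrane set was 0.04 ± 0.04 in WT and -0.04 ± 0.02 in KO mice, where the lowest WT mouse, at 0.0058, lay above the highest KO mouse, at -0.0058. Among WT mice the 2 highest of that set were again replicates 1 and 5. No test is given for these levels, since the genes were chosen as a group. A mean over many genes varies less between mice than a single gene. How often other gene sets of this size separate the genotypes was not counted, so the separation cannot be called particular to this set. The coefficient of variation among WT mice had a median of 4.30% (range 1.72% to 7.67%) in the V-ATPase set and of 6.67% (range 3.60% to 24.6%) in the lysosomal membrane set.

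Without the 2 mice high in choroid plexus markers the medians were 0.03 and -0.04, and 3 of the 38 genes had an unadjusted p under 0.05, namely Atp6v0a2, Atp6v1a and Cln3. Oligodendrocyte markers had lower means in KO mice in 10 of 10 genes, with a summed count of 87815 to 190078 in WT and 75562 to 115431 in KO mice, none at 0 in all mice, and their mean log2 level differed between genotypes (exact permutation p = 0.0108, 0.0433 after adjustment over 8 lists). Microglial markers had lower means in 9 of 9 genes, with a summed count of 8205 to 11083 in WT and 7656 to 8637 in KO mice, none at 0 in all mice (exact permutation p = 0.00866, 0.0433 after adjustment). With the oligodendrocyte marker level as a covariate, an alternative chosen after seeing the data, Scarb2 moved from -0.13 to 0.03, Atp6v0a1 from 0.13 to 0.05 and Lamp1 from 0.01 to 0.20, while Cln3 stayed at -0.25 and Atp6v0a2 moved from -0.14 to -0.24. In the same fit Cd63 moved from -0.24 to 0.01, Lamp2 from -0.22 to -0.07 and Tcirg1 from -0.12 to -0.06. Other genes moved away from 0, with Slc36a1 from -0.10 to -0.28, Ctns from -0.12 to -0.24 and Tmem192 from -0.02 to 0.19. Dmxl2 went from 0.10 to -0.11 and Wdr7 from 0.06 to -0.07. The medians in that fit were 0.03 for the V-ATPase set and -0.07 for the lysosomal membrane set, and none of the 38 genes passed. The part of these cell types in the differences was not tested beyond this fit.

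The genotype difference was also compared between the sexes. In limma's interaction term, 0 of 18221 genes passed, by limma as by edgeR, and 3.45% of all genes and 2 of the 38, Slc38a9 and Ctns, had an unadjusted p under 0.05. The largest was Slc38a9, at -0.12 in females and 0.13 in males (difference 0.25 ± 0.09, adjusted p = 0.99994). Ctns was at -0.25 in females and 0.03 in males. With 2 WT males and 2 KO females, the interaction rested on few mice. The sex effect itself passed in 0 of the 38 genes, and 0 had an unadjusted p under 0.05.

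Other genes of the pathway were counted from lists. Of 6 further V-ATPase isoforms, known mainly from kidney, epididymis and other tissues, only Atp6v1c2 reached the mean count of 10 (14.95 ± 9.27 in WT, 23.7 ± 5.0 in KO, adjusted p = 0.308), and the other 5 had mean counts between 0.101 and 6.95. Of 12 assembly factors and regulators outside the 38 genes, 11 were tested, none passed and none had an unadjusted p under 0.05, with a median log2 fold change of 0.01. Of 36 other lysosomal membrane proteins, 35 were tested and 3 fell in KO mice, namely Slc26a11 (-0.71 ± 0.10, adjusted p = 0.00392), Slc38a7 (-0.40 ± 0.06, adjusted p = 0.0105) and Mfsd1 (-0.25 ± 0.04, adjusted p = 0.0173), and 15 had an unadjusted p under 0.05, of which 11 had lower and 4 higher means in KO mice, beside 13.5% of all genes. Slc38a7 is a transporter of glutamine and asparagine. At the adjusted threshold, 0.741% of all genes tested were lower and 0.159% higher in KO mice. The median of the list of other lysosomal membrane proteins was -0.02.

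The enzymes in the lumen of the lysosome differed more. Of 33 hydrolases, 9 fell in KO mice and none rose, beside 0.741% and 0.159% of all genes tested. Of the 33, 24 had an unadjusted p under 0.05 (21 of them with lower means) beside 13.5% of all genes, and the median log2 fold change was -0.23. The 3 largest falls were those of Sgsh, the heparan sulfate sulfamidase (-0.80 ± 0.11, adjusted p = 0.00305), Gaa, the lysosomal alpha-glucosidase (-0.63 ± 0.05, adjusted p = 4.51e-05), and Manba, the lysosomal beta-mannosidase (-0.50 ± 0.11, adjusted p = 0.0456). In counts, Gaa had means of 10724 ± 629 (SD) in WT and 6912 ± 477 in KO mice. The V-ATPase genes that acidify this lumen had a median of 0.05 with none past the threshold, and the difference between the lists was not tested.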

How the data were processed

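Hippocampal RNA of 12 mice was sequenced, 1 library per mouse (NEBNext Ultra II RNA kit), with genotype and sex from the sample labels. The authors aligned reads with STAR and deposited a normalised signal, namely counts scaled by DESeq2 with 1 size factor for each library, so values are not per length. The submitters' processing notes name STAR 2.5.0a, edgeR 3.22.2 and mm10. The counter, annotation and strandedness are not given in the sources used here, so antisense overlaps could not be separated. Coordinates corresponded to GENCODE M21 (GRCm38) for 99.4% of genes. Every value (100%) of a library was an integer multiple of 1 step (tolerance 0.01), which gave back whole reads. All value columns were used. No 2 libraries were repeats.

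The main test was limma 3.58.1 in R 4.3.3 with a mean-variance trend on log2(normalised count + 1), genotype as the only term, two-sided, for genes with a mean of at least 10, adjusted by Benjamini-Hochberg and called at 0.05. Adjusted p-values in the text without a tool are from this test. A fold change on this scale understates that of low genes. Each library is a separate mouse. Levels per kilobase used the principal transcript of GENCODE M21. With the length of all exons the order of levels had Spearman's rho of 0.96 with that order and the largest shift was 7 ranks. Alternatives were edgeR 4.0.16 and DESeq2 1.42.0 on recovered reads, other pseudocounts, limits and scalings, sex as a covariate, each sex alone, and leaving out mice.

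The 38 genes, their roles, the gene lists and the tests were chosen with earlier results of these data known. All 38 genes are accounted for. Values of the mice are given for genes with an unadjusted p under 0.05 and separate genotypes, for the 3 highest per length and the most variable gene of each set, and for isoform pairs. Atp6v0d1, Atp6v1a, Atp6v1d, Lamp2, Tpcn2 and Ctns were added after their values were seen. The steps were tested on simulated counts. Figures were made in Python 3.11.15 with matplotlib 3.10.9.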

Additional observations from a re-analysis of the deposited data

Results flagged for a closer look

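In 3 of 78 groups of 6 mice examined (each of the 38 genes and Usf1 in each genotype) a single mouse lay far from the others by Dixon's test, where chance gives about 3.9. The count of Usf1 in WT replicate 5 was 842, where its group otherwise spanned 1425 to 1583, and this mouse is 1 of the 2 high in choroid plexus markers. The count of Atp6v0a2 in KO replicate 2 was 1834, where the rest of its group spanned 1660 to 1722, and this is the mouse that brought the genotypes of Atp6v0a2 into overlap. The count of Atp6v1e1 in WT replicate 6 was 6446, with the remainder of its group at 5946 to 6059. The sources of these values were not tested.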

How the results depend on the processing

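The count of the 38 genes past the threshold was 0 in each setting tried except DESeq2 on recovered reads, where it was 3 (2 V-ATPase and 1 lysosomal membrane gene). The lowest adjusted p among them lay between 0.0132 with DESeq2 and 0.964 in females alone. The number of all genes past the threshold was 164, and it was 98 with sex as a covariate, 109 without limma's trend, 616 with DESeq2, 59 without the 2 mice high in choroid plexus markers, 4 in females alone, 6 in males alone, 343 at a threshold of 0.1, and 17 with the oligodendrocyte marker level as a covariate, which was chosen after seeing the data. Leaving out each mouse in turn gave between 64 (without WT replicate 1) and 515 (without WT replicate 4). The median log2 fold change of the V-ATPase set was 0.0505, and it was 0.014 under quantile normalisation and 0.0198 in females alone. Of the 7 genes with an unadjusted p under 0.05, only Scarb2 changed sign, to 0.0271 with the oligodendrocyte covariate, in 1 of 182 pairs of gene and setting. Those 7 genes were picked by their p in these mice, and every setting reused all or some of the same mice. Their kept signs are therefore no independent evidence. Over all 38 genes the sign changed in 89 of 988 pairs. The causes were not tested. No paired analysis was possible because the labels number no mice in pairs. Reads per library were fewest for Tpcn2, at 80 to 160, so counting error weighs most on that gene.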
